A study of Mus musculus with 45 samples.

Results

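Cells captured with beads against ACSA2 were compared with total homogenate of the same tissue in mice that had drunk ethanol. ACSA2 is an astrocyte surface antigen carried by ATP1B2, a beta subunit of the sodium pump. Members were the libraries that the sample titles place in the isolated or homogenate fraction of the ethanol group, 22 of the 44 libraries with counts. The isolated fraction came from 10 ethanol mice and the homogenate from 12, and 10 mice gave both. All mice were C57BL/6J, a wild-type inbred strain, and the tissue was medial prefrontal cortex. Ethanol mice had a bottle of 15% (v/v) ethanol on alternate days for 72 days and were killed 24 h after the last day of drinking. Water mice, used here for comparison, gave 10 isolated and 12 homogenate libraries after the same 72 days. The homogenate was 5% of the minced suspension, set aside before enzyme treatment. The remaining suspension was dissociated, freed of myelin on 25% Percoll and passed over the beads, so handling and cell selection cannot be told apart in any difference between the fractions. The labels name the isolated fraction astrocyte and state nothing on animal age or on purity.

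Astrocytes take up synaptic glutamate, buffer potassium, supply lactate and lipids to neurons and wrap blood vessels. Bead capture after enzymatic dissociation is a common way to study their RNA, and dissociation of living brain tissue is known to induce immediate early genes and inflammatory genes, most of all in microglia. Homogenate holds every cell type of the tissue with its processes and axons, whereas a sorted cell keeps mainly its body. In bulk RNA of this kind, more cells of a type and more RNA per cell of that type cannot be told apart.

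Total gene counts per library were lower in the isolated fraction, with a median of 1406652 (1028493 to 3248804), than in the homogenate, with 6266918 (3673811 to 9109247). Isolated libraries had 14616 to 16009 genes with counts and homogenates 16209 to 17402. Reads not aligned made up 37.4% to 81.5% of isolated libraries and 20.6% to 43.6% of homogenates. Levels below are CPM (counts per 1000000 gene counts, scaled by TMM), given as the lowest, median and highest library where 3 values stand together. A change is a log2 fold change of isolated cells over homogenate with its SE, and a gene was called at a false discovery rate (FDR) under 0.05 in the quasi-likelihood test of edgeR.

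Most of the measured transcriptome differed between the fractions. Of 13489 genes tested, 5374 (39.8%) were higher and 5646 (41.9%) lower in isolated cells, and 2469 did not pass. At least 2-fold differences were called for 2746 genes higher (20.4%) and 3100 lower (23%), so a count of members called has to be read against these shares. The median log2 fold change over all genes tested was -0.04, and the median half-width of its 95% interval for a gene was 0.243. All isolated libraries lay above all homogenates for 2929 genes (21.7%) and below them for 3424 genes (25.4%). The lower side held more of the extreme changes, with 724 genes at least 16-fold lower and 154 at least 16-fold higher.

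The largest increases were in genes of acute immune and stress signalling. Tnf, which encodes tumour necrosis factor (chromosome 17, 35199381 to 35202007, mm10), had 71.8, 166 and 314 CPM in isolated cells, against 0, 0.251 and 0.849 CPM in homogenate, a log2 fold change of 9.12 ± 0.34 (FDR 5.87e-18). The chemokine genes Ccl4 (8.17 ± 0.19), Ccl3 (8.13 ± 0.20) and Ccl7 (7.42 ± 0.44), the interleukin gene Il1a (8.15 ± 0.25) and Rgs1 (7.81 ± 0.30), a regulator of G protein signalling found in leukocytes, followed. Atf3, a stress-induced transcription factor (chromosome 1, 191170296 to 191218039), had the lowest p of all, with 930, 1103 and 1364 CPM in isolated cells and 3.76, 4.70 and 9.56 CPM in homogenate (7.76 ± 0.13, FDR 1.58e-25). Zfp36 (7.30 ± 0.14), Ppp1r15a (5.26 ± 0.10), Klf4 (5.58 ± 0.11), Socs3 (5.78 ± 0.13) and the receptor kinase gene Epha2 (5.66 ± 0.13) had the next lowest p values among higher genes. None of these genes overlapped between the fractions in any library. Fam71a, named after its values were seen, was the single tested gene with no count in any homogenate, and its isolated level of 9.43 CPM was at least 232-fold higher, set against a floor of 3 counts over the 12 homogenates.

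The largest decreases were in genes with no or almost no count in isolated cells. Slc47a1, a transporter gene, Htr1b, a serotonin receptor gene, the keratin gene Krt77 and the anion exchanger gene Slc26a4 had 0 counts in all 10 isolated libraries. Against a floor of 3 counts over those libraries (0.174 CPM, which covers counting error only), Slc47a1 was at least 44.9-fold lower, Htr1b at least 43.5-fold, Krt77 at least 41.4-fold and Slc26a4 at least 38-fold. In homogenate Slc47a1 had 2.60, 7.37 and 14.0 CPM and Htr1b 2.08, 6.97 and 13.1 CPM. The other 6 tested genes at 0 in every isolated library were Shh, Ifit1bl1, Mir1188, A330050F15Rik, AI115009 and Gm38413, named after their values were seen. Glra2, a glycine receptor gene, had 2 counts in isolated libraries and 1411 in homogenates, an isolated over homogenate ratio of 0.00669 (95% exact counting interval 0.000809 to 0.0242). Chrm2, a muscarinic receptor gene, had 1 and 756 counts, and its ratio was 0.00624 (0.000158 to 0.0349). Cntnap3 and Epha8, an adhesion protein gene and an ephrin receptor gene, also had 1 isolated count each. The decreases with the lowest p were in genes read at high levels in homogenate and used by neurons. Mapk8ip2, a scaffold of the JNK pathway, had 8.63, 14.9 and 23.6 CPM in isolated cells and 338, 359 and 392 CPM in homogenate (-4.60 ± 0.10, FDR 2.09e-23). Ncs1, a calcium sensor (-3.99 ± 0.09), Camta1 (-3.21 ± 0.08), Syt13 (-5.15 ± 0.12), Dzank1 (-3.91 ± 0.09) and Arf3 (-3.35 ± 0.08) were next.

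The labelled cell type was checked first. Of 29 astrocyte markers tested, 24 rose, 3 fell and 2 failed to pass, with a median log2 fold change of 0.92 and a range of -2.25 to 2.04. The summed level of these markers was 1.36%, 2.13% and 2.50% of gene counts in isolated libraries, against 1.136%, 1.34% and 1.57% in homogenates, so the fractions overlapped in it. The capture antigen gene Atp1b2 (chromosome 11, 69599736 to 69605942) had 610, 990 and 1129 CPM in isolated cells and 455, 589 and 737 CPM in homogenate, 0.68 ± 0.10 (FDR 6.75e-07), and was higher in 10 of 10 mice although the ranges overlapped. The markers with the lowest p were Slc7a10, an amino acid transporter (100, 179 and 192 CPM against 36.7, 39.4 and 44.3, 2.04 ± 0.09), Atp13a4, a cation pump (1.94 ± 0.10), and F3, tissue factor (1.89 ± 0.11). Glul, glutamine synthetase (1.05 ± 0.07), was higher with no overlap of libraries. The astrocyte median was below that of each other glial and vascular list except oligodendrocyte precursors, fibroblasts and ependyma.

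The 3 lower astrocyte markers were genes of different kinds. Gfap, the intermediate filament gene of astrocytes (chromosome 11, 102887336 to 102900912), had 12, 32.6 and 66.9 CPM in isolated cells and 72.9, 161 and 317 CPM in homogenate, with no overlap and a decrease in every mouse (-2.25 ± 0.25, FDR 1.16e-08). Slc1a2, the main glutamate transporter gene of the forebrain, had 3101, 5069 and 7214 CPM in isolated cells and 5292, 6575 and 8702 CPM in homogenate (-0.42 ± 0.13, FDR 0.00498). Ppp1r3c, which targets a phosphatase to glycogen, was lower by a similar amount (-0.49 ± 0.14, FDR 0.00188). S100b (-0.33 ± 0.19, FDR 0.116) and Etnppl (0.08 ± 0.16, FDR 0.620) did not pass. S100b was lower with mouse as a block (-0.43 ± 0.13, FDR 0.00676) and without isolated libraries 60, 61 and 77, described below (-0.61 ± 0.19, FDR 0.00554), and 4 of the 29 markers were lower in each of those fits. Slc1a2 shares exon sequence with a gene on the opposite strand, as do 54 other genes of the 273 picked by the naming rule, and the strand setting of the counting is not given in the sources used here.

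Genes of astrocyte physiology did not move together. In the glutamate and glutamine cycle 8 of 15 genes were higher and 7 lower. Higher were the astrocyte transporter Slc1a3 (0.94 ± 0.09), Glul and the glutamine carrier Slc38a2 (2.03 ± 0.08, FDR 2.90e-19). Lower were the neuronal transporter Slc1a1 (-2.57 ± 0.12), the glutaminase Gls2 (-3.77 ± 0.20), the carrier Slc38a1 (-2.21 ± 0.13) and the transaminases Got1 (-1.82 ± 0.08) and Got2 (-1.66 ± 0.10). Among 9 sodium pump genes, 4 were higher and 5 lower. Beside Atp1b2, the subunit gene Atp1b3 (1.67 ± 0.08, 200, 230 and 303 CPM against 61.8, 78 and 84.6) and the regulator gene Fxyd1 (1.21 ± 0.16) were higher. The subunit gene Atp1b1 was lower (-3.26 ± 0.08). Of 12 genes for potassium, water and gap junction channels and their anchors, 9 were higher and 1 lower. The chloride cotransporter gene Slc12a2 had the largest increase (2.93 ± 0.08), Gja1, which encodes the main astrocyte connexin, was at 1.43 ± 0.09, and the potassium channel gene Kcnj10 at 0.69 ± 0.09. Kcnk2, a background potassium channel gene, was the lower one (-0.99 ± 0.11).

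**Figure D1:**
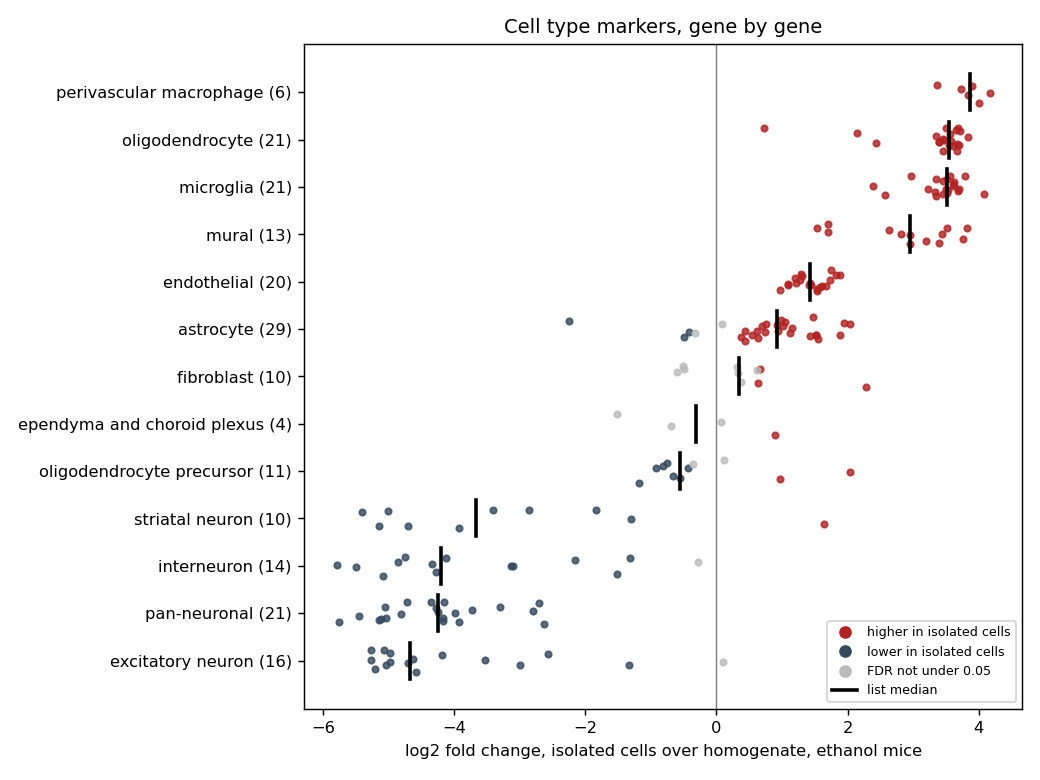
Log2 fold change of isolated cells over homogenate in ethanol mice (x axis) for every tested member of 13 cell type marker lists (y axis, number tested in brackets); points are genes, coloured by call, and bars are list medians. Microglia, oligodendrocyte, macrophage and mural medians lie between 2.95 and 3.87, the astrocyte median at 0.92, and the 4 neuronal medians between -4.67 and -3.67.

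Markers of cells that the label does not name were raised by more than those of astrocytes. All 21 microglial markers were tested and all were at least 2-fold higher, with every isolated library above every homogenate, where 21.7% of all genes showed such a separation. Their median log2 fold change was 3.52. Tmem119, a microglial membrane protein gene (chromosome 5, 113793729 to 113800516), had 491, 551 and 759 CPM in isolated cells and 36.3, 44.6 and 58.4 CPM in homogenate (3.71 ± 0.09, FDR 4.48e-23). Csf1r, the receptor for the survival factor CSF1, had 1269, 1560 and 2231 CPM against 124, 144 and 174 CPM (3.53 ± 0.10). The fractalkine receptor gene Cx3cr1 (3.57 ± 0.11), the complement gene C1qb (3.5 ± 0.09), Fcrls (3.60 ± 0.10) and Laptm5 (4.09 ± 0.12) gave the same separation. Summed over the list, microglial markers took 0.937%, 1.12% and 1.43% of gene counts in isolated libraries and 0.0846%, 0.0967% and 0.115% in homogenates. Of 8 markers of perivascular macrophages, 6 were tested and all 6 were higher, with a median of 3.87. Mrc1, the mannose receptor gene, had 48.2, 102 and 236 CPM in isolated cells and 3.38, 6.77 and 20.6 CPM in homogenate (3.90 ± 0.29), and Stab1 (3.36 ± 0.13), F13a1 (4.0 ± 0.21) and Cd163 (3.74 ± 0.26) were alike.

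Mature oligodendrocytes, the myelin-forming cells, showed a similar rise. All 21 markers were higher, 20 of them at least 2-fold and without overlap, with a median of 3.55. Cnp, a myelin enzyme gene, had 1476, 2158 and 3105 CPM in isolated cells and 102, 177 and 370 CPM in homogenate (3.58 ± 0.18, FDR 2.67e-16). Trf, transferrin (3.46 ± 0.14), Gpr37 (3.39 ± 0.14) and the transcription factor gene Myrf (3.5 ± 0.16) were raised by about as much. Mbp, myelin basic protein, whose mRNA is known to be carried out of the cell body to the myelin sheath, was the exception. It had 1916, 2238 and 3203 CPM in isolated cells and 572, 1188 and 4233 CPM in homogenate, 0.73 ± 0.23 (FDR 0.00533), with overlapping fractions. Mobp, another myelin protein gene, named after its values were seen, was at 2.43 ± 0.24, below the list median of 3.55. The place of an mRNA within the cell was not measured, and its part in these values was not tested.

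Oligodendrocyte precursors did not share this rise. Of 11 markers 2 were higher, 7 lower and 2 did not pass, with a median of -0.55. Cspg4, the NG2 proteoglycan gene, which pericytes also express, had 173, 212 and 281 CPM in isolated cells and 46.7, 51.6 and 58.9 CPM in homogenate (2.04 ± 0.08, FDR 2.54e-19). Gpr17, a receptor gene of committed precursors, was lower (-0.82 ± 0.22), as were the calcium channel subunit gene Cacng4 (-1.18 ± 0.25) and the transcription factor gene Sox6 (-0.44 ± 0.10). Pdgfra, the growth factor receptor that defines these cells, had 32.4, 42.0 and 148 CPM in isolated cells and 58.4, 76 and 81.4 CPM in homogenate and did not pass (-0.36 ± 0.20, FDR 0.0975). With mouse as a block it passed (-0.47 ± 0.20, FDR 0.0476). Without isolated libraries 60, 61 and 77 it was lower (-0.71 ± 0.13, FDR 2.26e-05). Matn4 was called higher over all libraries (0.98 ± 0.33, FDR 0.00898), but not with mouse as a block (0.61 ± 0.37, FDR 0.140) or without those 3 libraries (-0.23 ± 0.17, FDR 0.227).

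Vascular markers were also higher. All 20 endothelial markers were higher, 19 at least 2-fold, with a median of 1.43, and 11 of them did not overlap between the fractions. Slc2a1, the glucose transporter of the blood-brain barrier, had 281, 348 and 469 CPM in isolated cells and 95.7, 105 and 130 CPM in homogenate (1.75 ± 0.09). Mfsd2a, a lipid transporter of the barrier (1.73 ± 0.09), the junction gene Esam (1.82 ± 0.14), and the receptor genes Flt1 (1.43 ± 0.17) and Ptprb (1.08 ± 0.19) were near the median. Pericytes and smooth muscle cells, which wrap vessels and are called mural cells, gave at least 2-fold increases for 13 of 13 tested markers, with a median of 2.95. The pericyte genes Vtn (533, 821 and 1040 CPM against 58.8, 68.7 and 119, 3.44 ± 0.12), Rgs5 (2.95 ± 0.12) and Pdgfrb (2.95 ± 0.12) lay at or above that median, while the contractile gene Acta2, named after its values were seen, was at 1.70 ± 0.45. Fibroblast markers moved little, with 3 of 10 higher and 7 not passed. Bgn, biglycan, was clearly higher (2.29 ± 0.23), Fbln1 less so (0.63 ± 0.13), and the collagen gene Col3a1 was close to the threshold (0.66 ± 0.30, FDR 0.0429) and lost its call in 16 of the 22 fits that left out 1 library. Of 13 markers of blood leukocytes 1 could be tested, Ly6c2, which had 2.18, 5.57 and 11.9 CPM in isolated cells and 1.56, 1.81 and 2.90 CPM in homogenate (1.44 ± 0.24). Of 7 markers of red blood cells 2 could be tested, Alas2 (2.15 ± 0.42) and Bpgm (0.79 ± 0.10), and both were higher.

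Most transcription factors that specify glia were higher. Of 21 tested, 16 were higher, 2 lower and 3 did not pass, with a median of 1.25, where 39.8% of all genes tested were higher. The myeloid factors Spi1 (4.33 ± 0.17) and Irf8 (4.31 ± 0.12) and the oligodendrocyte lineage factor Olig1 (2.05 ± 0.12) were at the upper end. Nfix (-0.45 ± 0.09) and Nfib (-0.44 ± 0.08), which astrocytes and neurons both use, were slightly lower.

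Neuronal transcripts were depleted. All 21 pan-neuronal markers were at least 2-fold lower, with each isolated library below each homogenate, and the median log2 fold change was -4.25. Their summed level was 0.0574%, 0.0791% and 0.118% of gene counts in isolated libraries and 1.24%, 1.30% and 1.43% in homogenates. None of them had 0 counts in all isolated libraries. Syt1, the calcium sensor of transmitter release (chromosome 10, 108497650 to 109010982), had 25.0, 65.5 and 102 CPM in isolated cells and 1312, 1658 and 1940 CPM in homogenate (-4.81 ± 0.23, FDR 1.74e-16). The non-coding RNA Snhg11 (-5.06 ± 0.23), the surface protein gene Thy1 (-4.36 ± 0.12) and Snap25, a subunit of the fusion machinery (-4.16 ± 0.21), fell by similar amounts, whereas Dlg4, the scaffold PSD-95 (-3.30 ± 0.08), and Map2, a dendritic microtubule protein gene (-2.79 ± 0.07), fell by less.

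Neuron classes fell alike with single exceptions. Of 16 markers of excitatory neurons 15 were lower, with a median of -4.67. Camk2a, the kinase of the postsynaptic density, had 47.5, 97.5 and 297 CPM in isolated cells and 3263, 4300 and 5539 CPM in homogenate (-5.28 ± 0.27). Slc17a7, the vesicular glutamate transporter, was at -4.70 ± 0.22 and the transcription factor gene Neurod2 at -5.28 ± 0.19. Rorb, a layer marker, was the one that did not pass (0.10 ± 0.12, FDR 0.449), with 61.7, 103 and 140 CPM in isolated cells and 66, 91.5 and 127 CPM in homogenate. Of 14 interneuron markers 13 fell and the list median was -4.20. Lower were Gad1 (-4.33 ± 0.35) and Gad2 (-4.75 ± 0.32), the enzymes that make GABA, Sst, somatostatin (-5.79 ± 0.30), and the cannabinoid receptor gene Cnr1 (-4.28 ± 0.17). Of 10 tested markers of striatal projection neurons 9 were lower, and Adora2a, an adenosine receptor gene, was higher. Adora2a had 13.7, 25.7 and 35.9 CPM in isolated cells and 3.45, 6.41 and 17.3 CPM in homogenate, and rose in 10 of 10 mice (1.65 ± 0.25, FDR 1.83e-06). The striatal peptide gene Penk had 0, 2.51 and 5.40 CPM in isolated cells and 22.3, 68.5 and 163 CPM in homogenate (-5.14 ± 0.48).

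Most genes of synaptic families were lower too. These lists share members with the neuronal marker lists, so they are not independent of them. Syp, Snap25, Syt1, Syn1 and Syn2 are also pan-neuronal markers, and Gad1 and Gad2 are also interneuron markers. The peptide genes Sst, Vip, Npy, Penk and Tac1 are also interneuron or striatal markers. All 26 synaptic vesicle genes were at least 2-fold lower without overlap, with a median of -4.23. The presynaptic scaffold gene Bsn (-4.99 ± 0.23) and the complexin gene Cplx2 (-5.13 ± 0.25) were near the lower end, synaptophysin, Syp (-4.25 ± 0.13), was at the median, and the vesicle fusion gene Vamp2 was lowered less (-2.21 ± 0.07). Of 17 ionotropic glutamate receptor genes 15 were lower, with a median of -2.48, closer to 0 than the pan-neuronal median of -4.25. Lower members included Grin1 (15.5, 21.5 and 44.4 CPM against 544, 684 and 735, -4.78 ± 0.15), Gria3 (-5.02 ± 0.19), Gria1 (-4.45 ± 0.22) and Gria2 (-2.39 ± 0.09). Grin2c, an NMDA receptor subunit gene read in astrocytes in mouse cortex, was the single higher one, with 248, 437 and 599 CPM in isolated cells and 118, 146 and 182 CPM in homogenate (1.57 ± 0.12, FDR 9.07e-13). GABA signalling genes were lower in 15 of 18 cases, such as the receptor subunit gene Gabra3 (-4.97 ± 0.12). The 3 higher genes included the GABA transporter Slc6a11 (1.13 ± 0.14) and the subunit gene Gabrg1 (0.86 ± 0.12), both of which astrocytes are known to express. The metabotropic receptor gene Gabbr1 was lower by less than most (-0.91 ± 0.07). Of 11 tested neuropeptide genes 10 were lower, among them Cck (-4.53 ± 0.24) and Pdyn, prodynorphin (-5.61 ± 0.35), and Npy did not pass (-0.27 ± 0.53, FDR 0.638).

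**Figure D2:**
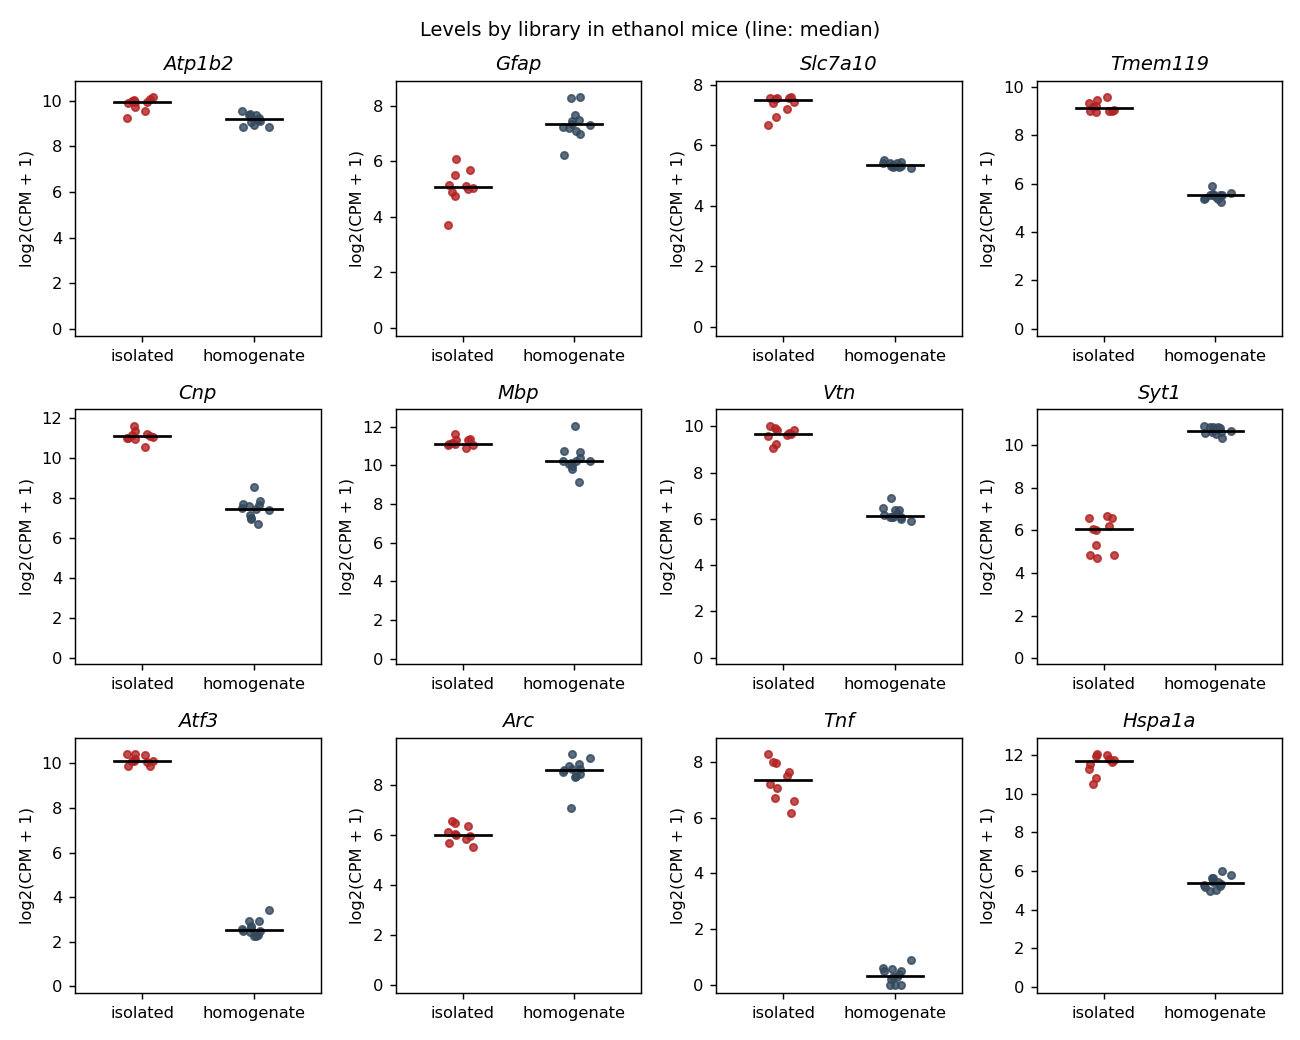
Level of 12 genes in each library as log2(CPM + 1), with isolated cells of 10 ethanol mice on the left and homogenate of 12 ethanol mice on the right of each panel; points are libraries and lines are medians. Tnf and Atf3 lie above and Syt1 and Arc below homogenate with no overlap, whereas Atp1b2 and Mbp overlap.

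Immediate early genes, which cells transcribe within minutes of a stimulus, were raised as a group. Of 27 members 26 were tested and all 26 were higher, 25 at least 2-fold and 23 without overlap, with a median of 3.76. The lowest in this list, Fosl2, was still at 0.66. Jun, a subunit of the AP-1 factor, had 2639, 3267 and 3733 CPM in isolated cells and 70.01, 96.0 and 127 CPM in homogenate (5.06 ± 0.12, FDR 2.93e-23). Fosb, its dimer partner, had 1903, 2175 and 2715 CPM against 26.3, 46.2 and 79.6 CPM (5.46 ± 0.20). Zfp36, which encodes an RNA-binding protein that speeds decay of cytokine mRNA, had 1097, 1432 and 1738 CPM against 5.88, 8.77 and 12.9 CPM, and Klf4 had 577, 727 and 839 CPM against 11.3, 14.6 and 21.1 CPM. Egr1 rose by less, with 1659, 1948 and 2624 CPM in isolated cells and 324, 387 and 619 CPM in homogenate (2.25 ± 0.12). Summed, the list took 1.82%, 2.35% and 2.85% of gene counts in isolated libraries and 0.146%, 0.173% and 0.224% in homogenates.

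Activity genes that belong mainly to neurons moved the other way. Of 9 tested, 8 were at least 2-fold lower, with a median of -3.08, and Nr4a2 did not pass (-0.49 ± 0.26, FDR 0.0880). Arc, which reaches dendrites and acts in synaptic plasticity, had 44.8, 63.8 and 94.0 CPM in isolated cells and 136, 388 and 599 CPM in homogenate (-2.55 ± 0.19). Egr3 (-2.66 ± 0.17) and Egr4 (-5.02 ± 0.31), relatives of Egr1, Homer1 (-3.08 ± 0.18) and the pentraxin gene Nptx2 (-3.76 ± 0.16) were lower with no overlap. Members of both lists are induced by stimulation, and pan-neuronal markers fell beside this list, by a median of -4.25 against -3.08. The part of neuronal depletion in the values of this list was not tested.

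Cytokine and NF-kB genes rose further than any marker list. NF-kB is a family of dimeric factors held in the cytoplasm by inhibitor proteins, and its targets include both cytokines and those inhibitors. Of 27 members 22 were tested, of which 21 were at least 2-fold higher with no overlap and 1 was lower, and the median was 5.12. Over all genes tested 20.4% were at least 2-fold higher and 21.7% lay above homogenate without overlap. Genes nearly absent from homogenate, such as Tnf and the chemokine genes Ccl3 and Ccl4, passed the count filter through isolated cells alone. Counts and medians of both lists therefore lean to members high there. Among the cytokines, Tnf and Il1a are given above. Among feedback inhibitors, Tnfaip3, which encodes the ubiquitin-editing protein A20, had 353, 459 and 761 CPM in isolated cells and 8.59, 9.83 and 15.3 CPM in homogenate (5.54 ± 0.14, FDR 2.40e-22). Nfkbiz, a nuclear cofactor gene (5.62 ± 0.15), and Socs3, a brake on cytokine receptors (266, 379 and 527 CPM against 4.54, 7.07 and 9.34), rose alike. Icam1, an adhesion molecule for leukocytes, had 348, 564 and 944 CPM against 2.86, 5.73 and 8.62 CPM (6.75 ± 0.19), and the activation marker Cd83 was at 5.07 ± 0.17. Ptgs2, the inducible prostaglandin synthase that cortical neurons express at rest, was the lower member (-1.24 ± 0.25, FDR 7.99e-05), with 6.61, 9.70 and 22.1 CPM in isolated cells and 10.5, 21.9 and 55.4 CPM in homogenate.

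Chemokines, the secreted proteins that attract leukocytes, gave 12 of 13 tested genes higher and a median of 5.52, the highest of all lists at full depth. After thinning all libraries to the lowest depth 6 genes of the list could be tested, and their median was 3.36. Ccl4 had 84.0, 102 and 133 CPM in isolated cells against 0, 0.203 and 1.11 CPM in homogenate, and Ccl3 had 104, 183 and 232 CPM against 0, 0.520 and 1.03 CPM. Neither overlapped. Chemokines that resting brain cells make changed little, with Cxcl12 at 0.88 ± 0.17 and Cxcl14 at 0.35 ± 0.13. Cx3cl1, the fractalkine that neurons make as ligand of the microglial Cx3cr1, was the lower gene, with 33.2, 54.9 and 81.2 CPM in isolated cells and 923, 1061 and 1411 CPM in homogenate (-4.46 ± 0.14). The ligand and its receptor moved in opposite directions. The summed level of the chemokine list, which Cx3cl1 and other abundant members weigh on, was 0.0756%, 0.104% and 0.138% of gene counts in isolated libraries and 0.112%, 0.133% and 0.157% in homogenates, so it did not follow the list median.

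Promoters of genes in these lists are shown because several hold the consensus kB site, the sequence that NF-kB dimers bind. The site was searched by its consensus on both strands, from 250 bases before to 50 after each start in RefSeq promoters of build GRCm38.p6, and matches may overlap. It was found in 8 of 20 matched genes of the cytokine and NF-kB list (40.0%), 4 of 10 chemokine genes (40.0%), 6 of 23 immediate early genes (26.1%) and 0 of 14 heat shock genes. The kB share was 5.14% over 27025 genes with a promoter in the table and 6.60% over those tested here. The cytokine list was drawn up with NF-kB genes in it, so its kB share is not independent of that choice. Other sites searched were also frequent in some lists. The AP-1 site was in 7 of 20 cytokine, 2 of 10 chemokine and 1 of 23 immediate early genes (6.07% of those tested). The cAMP response element was in 3 of 23 immediate early genes (3.59%). The heat shock element was in 3 of 14 heat shock genes (0.586%). A match is a description of the sequence and not a measured binding site. Matches given from here on are to the kB site alone. The 4 windows below were chosen after those matches were seen and cover the 200 bases before the start. The windows run 5′ to 3′ on the strand of the gene and carry the matched bases in capitals. They lie at chr12:55492648-55492847 (minus strand, Nfkbia), chr5:90903699-90903898 (plus strand, Cxcl2), chr10:19015411-19015610 (minus strand, Tnfaip3) and chr19:46304537-46304736 (plus strand, Nfkb2).
Nfkbia: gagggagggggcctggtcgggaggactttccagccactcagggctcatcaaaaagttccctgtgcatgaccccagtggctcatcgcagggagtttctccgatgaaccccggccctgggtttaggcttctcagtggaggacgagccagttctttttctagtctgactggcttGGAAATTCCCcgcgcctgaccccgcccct
Cxcl2: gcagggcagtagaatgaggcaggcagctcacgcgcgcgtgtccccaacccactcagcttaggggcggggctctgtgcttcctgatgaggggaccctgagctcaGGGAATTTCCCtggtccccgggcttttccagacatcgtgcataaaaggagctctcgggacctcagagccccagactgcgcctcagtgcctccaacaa
Tnfaip3: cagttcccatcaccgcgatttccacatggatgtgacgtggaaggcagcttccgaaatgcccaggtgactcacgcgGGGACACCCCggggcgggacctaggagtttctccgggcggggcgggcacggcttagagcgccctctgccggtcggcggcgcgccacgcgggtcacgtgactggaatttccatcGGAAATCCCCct
Nfkb2: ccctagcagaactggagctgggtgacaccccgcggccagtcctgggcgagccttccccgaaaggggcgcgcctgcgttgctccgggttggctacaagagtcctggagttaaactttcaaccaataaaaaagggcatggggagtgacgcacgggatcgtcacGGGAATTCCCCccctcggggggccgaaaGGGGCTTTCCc

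The 4 genes with these promoters were higher in isolated cells, as were most tested members of their lists. In the cytokine and NF-kB list 21 of 22 were higher, and in the chemokine list 12 of 13. All 26 tested immediate early genes were higher too, although 6 of 23 held a match. Any link between the site and the rise was not tested. Nfkbia, which encodes the inhibitor IkB alpha, holds 1 match in the window and had 236, 315 and 496 CPM in isolated cells against 16.8, 20.2 and 29.4 CPM in homogenate (4.01 ± 0.12). Cxcl2, a neutrophil chemokine, holds 2 matches that overlap and had 438 counts in isolated libraries against 1 count in homogenates, a ratio of 2067 (95% exact counting interval 369 to 81835). Nfkb2, a subunit of NF-kB itself, holds 3 matches in the window, 2 of them overlapping, and further matches in the searched bases outside it. Nfkb2 had 78.8, 116 and 189 CPM against 3.40, 4.67 and 6.11 CPM (4.69 ± 0.15). Tnfaip3 holds 2 matches.

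Innate sensing and antigen presentation rose with the microglial markers. All 18 tested genes of Toll-like receptor signalling were higher, 17 at least 2-fold, with a median of 3.20. Tlr2, a receptor for bacterial lipoproteins, had 98.2, 203 and 342 CPM in isolated cells and 1.69, 2.45 and 4.46 CPM in homogenate (6.33 ± 0.20), and its coreceptor gene Cd14 was at 5.30 ± 0.17. The kinase gene Irak1, used by most cell types, was least changed (0.31 ± 0.07). Of 13 tested complement genes 10 were higher and 3 did not pass, with Itgb2 (3.73 ± 0.10), C1qa (3.35 ± 0.11) and C1qc (3.46 ± 0.10) close to the microglial median. C1qa, C1qb, C1qc and Itgam are members of the microglial list as well, so the 2 lists are not independent. All 13 tested genes of antigen presentation were at least 2-fold higher, led by the class I genes H2-K1 (365, 501 and 678 CPM against 27.3, 37.1 and 46.6, 3.83 ± 0.11) and H2-D1 (3.41 ± 0.13), with the light chain gene B2m at 2.63 ± 0.13 and the peptide transporter gene Tap2 at 1.96 ± 0.09. Microglial markers rose beside each of these groups, 21 of 21 with none at 0, and perivascular macrophage markers likewise. Leukocyte markers from blood took 0.00108% to 0.00345% of gene counts in isolated libraries and 0.000258% to 0.00141% in homogenates. The part of cell composition and of handling in the rise of these groups was not tested.

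**Figure D3:**
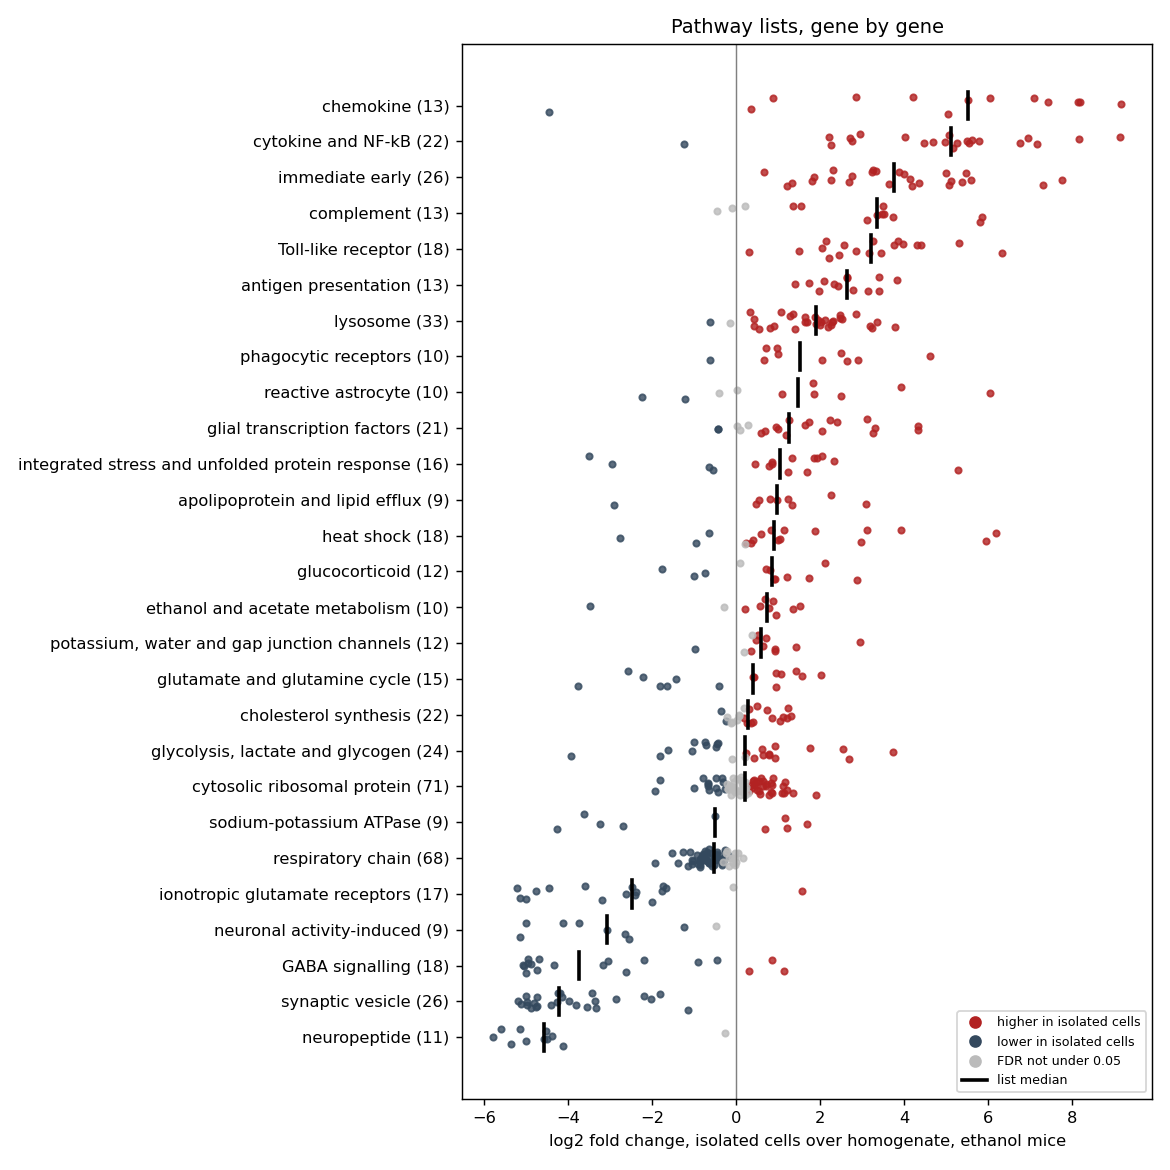
Log2 fold change of isolated cells over homogenate in ethanol mice (x axis) for every tested member of 27 pathway lists (y axis, number tested in brackets), coloured by call, with list medians as bars. Chemokine, cytokine and immediate early lists lie highest (medians 5.52, 5.12 and 3.76) and neuropeptide and synaptic vesicle lists lowest (-4.59 and -4.23).

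Protein folding and stress genes rose unevenly. Heat shock proteins are chaperones that cells induce when proteins unfold. Of 18 tested, 14 were higher, 3 lower and 1, Hsph1, did not pass, with a median of 0.90. The inducible genes Hspa1a and Hspa1b stood out, with 1457, 3299 and 4217 CPM in isolated cells against 30.9, 40.8 and 63 CPM in homogenate for Hspa1a (6.19 ± 0.19), and 5.95 ± 0.22 for Hspa1b. These 2 genes are near-identical copies, so their separate values are uncertain. The small heat shock gene Hspb1 (3.92 ± 0.18) and the cochaperone gene Bag3 (3.10 ± 0.12) were also raised. The constitutive gene Hsp90ab1 differed little (0.40 ± 0.08), and Hspa12a (-2.78 ± 0.10), Hspa4 (-0.64 ± 0.06) and Hspa4l (-0.97 ± 0.12) were lower. Of 16 tested genes of the integrated stress and unfolded protein responses, 12 were higher and 4 lower. Ppp1r15a, which restarts translation after stress, had 530, 647 and 804 CPM in isolated cells and 13.4, 17.3 and 22.4 CPM in homogenate. Herpud1 (2.34 ± 0.08) and Hspa5, the main chaperone of the endoplasmic reticulum (1.91 ± 0.09), were higher. Asns, an amino acid synthesis gene that the same response induces, was lower (-3.51 ± 0.16), with 1.79, 5.40 and 10.4 CPM against 53.6, 58.7 and 69.8 CPM, and so were Chac1 (-2.96 ± 0.37), Atf6 (-0.65 ± 0.11) and Sel1l (-0.55 ± 0.07).

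Genes under glucocorticoid control were split. Of 12, 8 were higher, 3 lower and 1, Fkbp5, did not pass (0.08 ± 0.21, FDR 0.715). Sgk1, a kinase gene induced by steroids and by cell stress, had 252, 335 and 659 CPM in isolated cells and 33.7, 47.3 and 82.3 CPM in homogenate (2.87 ± 0.17). Tsc22d3 (2.10 ± 0.13), Errfi1 (1.73 ± 0.11), the clock gene Per1 (1.20 ± 0.13) and the receptor gene Nr3c1 (0.79 ± 0.08) were higher. The mineralocorticoid receptor gene Nr3c2 (-1.0 ± 0.18), Zbtb16 (-1.78 ± 0.33) and Klf9 (-0.75 ± 0.10) were lower. In the reactive astrocyte list 6 of 10 tested genes were higher and 2 lower, where 39.8% and 41.9% of all genes tested were. Hspb1 is also in the heat shock list and Cxcl10 in the chemokine list. Which cells the transcripts of this list came from was not tested. Gfap and Vim, both intermediate filament genes that reactive astrocytes raise, differed in sign. Vim had 76.3, 95.8 and 143 CPM in isolated cells and 32.9, 46.0 and 83.2 CPM in homogenate (1.10 ± 0.16). S1pr3 (2.48 ± 0.11) and Cxcl10 (6.03 ± 0.37) were higher, and Aspg was lower (-1.23 ± 0.32).

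Metabolic lists held changes in both directions. Of 24 tested genes of glycolysis, lactate and glycogen, 12 were higher and 10 lower. Hk2, a hexokinase gene, had 93.3, 146 and 217 CPM in isolated cells and 7.68, 11 and 16.6 CPM in homogenate (3.72 ± 0.13), while its relative Hk1 was lower (-1.82 ± 0.07). The pair Aldoc, an astrocyte aldolase gene (0.61 ± 0.09), and Aldoa (-1.0 ± 0.07) differed in the same way, and the neuronal enolase gene Eno2 was far lower (-3.94 ± 0.13). All 3 phosphofructokinase genes, Pfkp (-1.64 ± 0.09), Pfkm (-0.72 ± 0.08) and Pfkl (-0.47 ± 0.06), and both lactate dehydrogenase genes, Ldha (-0.75 ± 0.08) and Ldhb (-0.45 ± 0.10), were lower. Of 10 tested genes that handle ethanol and acetate, 8 were higher and 1 lower. Cat, catalase, which oxidises ethanol in brain, had 71.9, 102 and 113 CPM in isolated cells and 33.5, 38.9 and 44.9 CPM in homogenate (1.36 ± 0.07). Aldh2, the mitochondrial enzyme that clears acetaldehyde, was at 0.87 ± 0.07, Acss1, which activates acetate, at 1.51 ± 0.09, and Aldh1b1 was lower (-3.5 ± 0.36). Adh1, Adh7 and Cyp2e1 were too low to be tested.

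Lipid genes rose in part. Of 22 cholesterol synthesis genes 13 were higher, 2 lower and 7 did not pass, with a median of 0.27. Msmo1 (1.30 ± 0.07), Insig1 (1.22 ± 0.08) and Dhcr7 (1.10 ± 0.08) were the clearest, Hmgcs1, early in the pathway, did not pass (-0.11 ± 0.07, FDR 0.125), and the regulator gene Srebf2 (-0.25 ± 0.07) was slightly lower. Among carriers and exporters of lipid 8 of 9 were higher. Apoe, the main lipid carrier of brain, had 1621, 2339 and 3822 CPM in isolated cells and 1257, 1499 and 1864 CPM in homogenate (0.79 ± 0.11), and Apod (3.09 ± 0.22) and the exporter gene Abca1 (2.24 ± 0.11) were raised by more. Lpl, lipoprotein lipase, was the lower one (-2.91 ± 0.32).

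Organelle genes separated by compartment. Of 33 lysosomal genes 31 were higher and 1 lower, with a median of 1.90 against -0.04 over all genes tested. Ctsd, a protease gene, had 1458, 1758 and 2051 CPM in isolated cells and 272, 311 and 335 CPM in homogenate (2.52 ± 0.07), and the cholesterol exporter gene Npc1 (2.31 ± 0.06) and Grn (2.46 ± 0.07) had lower p values. Gaa, the glucosidase that degrades glycogen in lysosomes, was the lower gene (-0.64 ± 0.09). Phagocytic receptors and bridging proteins were higher in 9 of 10 cases. Mertk, an engulfment receptor of astrocytes and microglia (274, 369 and 506 CPM against 49.6, 54.8 and 86.7, 2.64 ± 0.10), the integrin gene Itgb5 (2.90 ± 0.07) and the ligand gene Pros1 (2.48 ± 0.08) were raised, and Tyro3, a relative of Mertk used by neurons, was lower (-0.64 ± 0.07). Respiratory chain genes of the mitochondrion were lower in 55 of 68 cases and higher in none, by small amounts, with a median of -0.54 and 9 genes at least 2-fold lower. With upper-quartile scaling 46 were lower and 1 higher. Cox8a (-1.93 ± 0.10), Cox6a1 (-1.28 ± 0.10) and Ndufa4 (-1.54 ± 0.13) fell most clearly, and Atp5b had 302, 340 and 368 CPM in isolated cells and 437, 482 and 597 CPM in homogenate (-0.53 ± 0.06). Ribosomal protein genes had no common direction, with 32 higher, 14 lower and 25 not passed of 71 tested, and ran from Rps15a (-1.95 ± 0.10) to Rpl10 (1.90 ± 0.13). Many of these genes have processed pseudogene copies, and the share of their reads lost to those copies is not known here.

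Isolated libraries varied more among themselves than homogenates on the log2 CPM scale. Correlations of log2 CPM were 0.927 to 0.964 within the isolated fraction, 0.965 to 0.986 within homogenate and 0.548 to 0.676 between fractions. Over 9626 genes the median SD of log2 CPM was 0.271 in isolated cells and 0.174 in homogenate, and the isolated SD was the larger one for 81.7% of genes. The common biological coefficient of variation of edgeR, an estimate of spread beyond counting error, differed less. It was 0.177 in isolated cells (9875 genes) and 0.170 in homogenate (12788 genes), and the median for single genes was 0.161 and 0.131. Isolated libraries were also shallower, and the part of depth in the larger SD was not tested. Isolated library 76 had the lowest summed astrocyte markers (1.36% of gene counts) and the highest summed cytokine and NF-kB genes (0.742%) and chemokines (0.138%), while isolated library 66 had the highest astrocyte markers (2.50%) and the lowest microglial markers (0.937%), cytokine and NF-kB genes (0.336%) and chemokines (0.0756%).

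The 6 genes that varied most among isolated libraries were Foxd3, Frzb, Aqp1, Ttr, Mybpc1 and Npy, and 5 of them shared a pattern. Foxd3, a transcription factor gene of the neural crest lineage, had 45.3, 38.9 and 79.5 CPM in isolated libraries 60, 61 and 77, and at most 0.726 CPM in the other 7. Frzb, a secreted Wnt inhibitor gene, had 130, 103 and 268 CPM in the same 3 libraries and at most 7.99 CPM in the others. Npy, neuropeptide Y, had 67.5, 38.9 and 99.3 CPM there, and Aqp1, a water channel gene, 86.9, 70.7 and 119 CPM. Mybpc1, a myosin-binding protein gene, had 39.4, 34.0 and 54.4 CPM. Foxd3 was at or below 1.02 CPM in every homogenate of ethanol mice, with the highest value in mouse 77. Among isolated libraries of water mice, number 74 showed it too, with 17.6 CPM of Foxd3 and 64 CPM of Frzb. The values of these genes rest on the 3 libraries. Without them Frzb was lower at -3.71 ± 0.50 in place of 0.69 ± 0.65, Mybpc1 at -3.60 ± 0.77 in place of 1.5 ± 0.65, and Npy at -4.20 ± 0.30. Mybpc1 also lost its call with mouse as a block (0.74 ± 0.76, FDR 0.383). Leaving the 3 libraries out gave 14 of 14 interneuron markers and 12 of 12 neuropeptide genes lower, where 11 neuropeptide genes were tested over all libraries. Npy is in both lists and was the only tested member of either that was not called lower over all libraries. Its high values were among those by which the 3 libraries were picked.

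**Figure D4:**
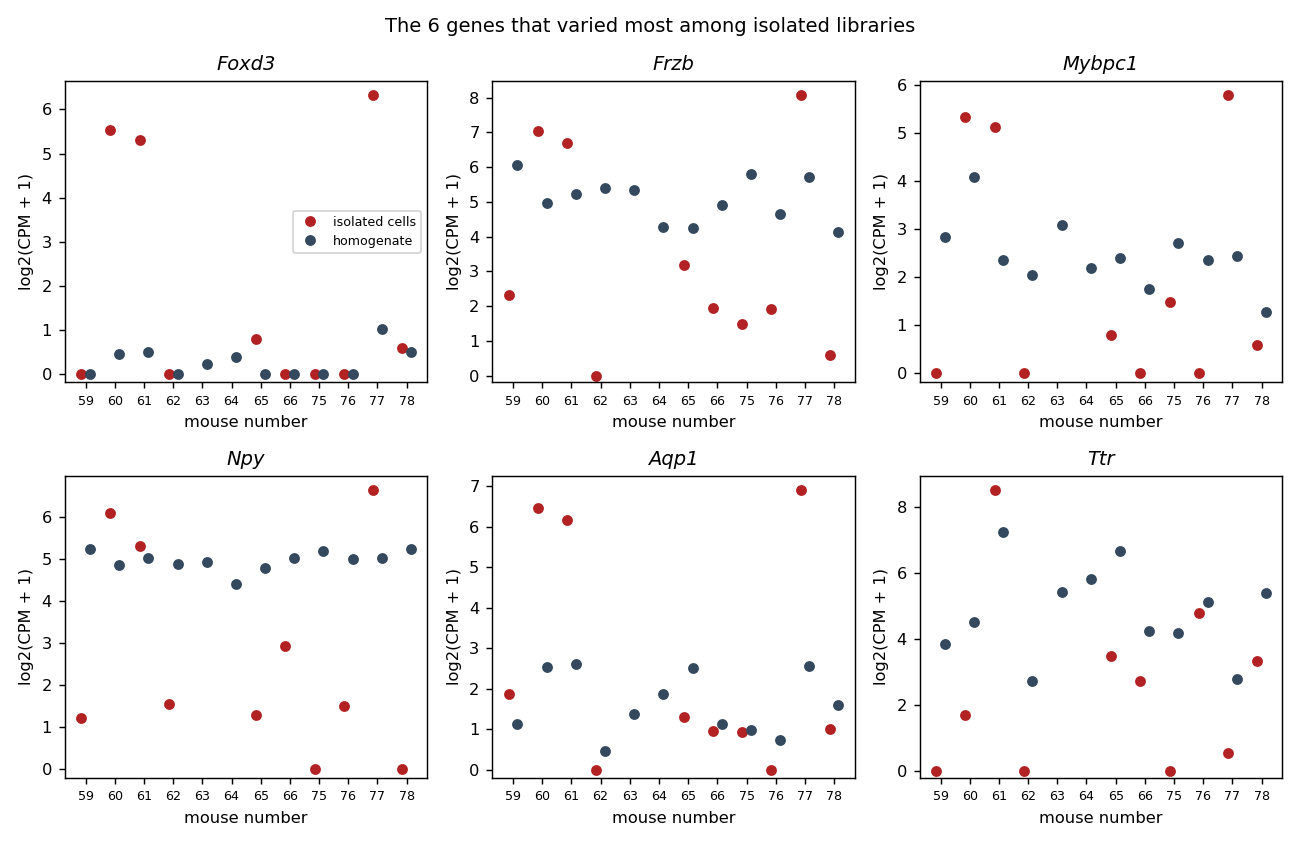
Level of the 6 most variable genes as log2(CPM + 1) by mouse number, with isolated cells of ethanol mice as red points and homogenate as dark points to their right. Foxd3, Frzb, Mybpc1, Npy and Aqp1 are high in isolated cells of mice 60, 61 and 77, and Ttr is highest in mouse 61 in both fractions.

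Ttr, the transthyretin of the choroid plexus, behaved otherwise. Isolated library 61 had 360 CPM and the homogenate of the same mouse had 151 CPM, the highest of each fraction. Kl, which encodes klotho and is expressed in the same tissue, had 36.2 CPM in isolated library 61 and 36.5 CPM in that homogenate, again the highest values. Over all libraries Ttr did not pass (0.06 ± 0.86, FDR 0.949), and it was lower with mouse as a block (-1.50 ± 0.60, FDR 0.0385) or without isolated library 61 (-3.00 ± 0.80, FDR 0.00172). Of the 10 ependymal and choroid plexus markers, 4 were tested, and Foxj1 alone was called (0.90 ± 0.33, FDR 0.0145). Without isolated libraries 60, 61 and 77 Foxj1 did not pass (0.77 ± 0.41, FDR 0.0924), and the list median was -1.68 in place of -0.31. Kl did not pass (-1.52 ± 0.71, FDR 0.0530) and was lower with the block (-2.23 ± 0.54, FDR 0.00183).

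The difference between fractions was then set against that in water mice, with ethanol minus water as the sign. In 1 model of all 4 groups, 14087 genes were tested and 0 (0%) differed at an FDR under 0.05 in edgeR. Before adjustment 834 genes (5.92%) had a p under 0.05, the lowest FDR was 0.271, limma voom called 0 genes, and DESeq2 called 2, Car12 higher (3.75 ± 0.75, FDR 0.00947) and Negr1 lower (-0.73 ± 0.16, FDR 0.0207). The 95% interval of the difference lay within 2-fold in either direction for 80.5% of genes, and its median half-width was 0.386 on the log2 scale. For those genes a difference of more than 2-fold lay outside the interval. Smaller differences may have gone uncalled, and their absence is not shown. Isolated water libraries were shallower, and 0 of the ethanol ones held under 1000000 counts, against 5 of the water ones.

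Genes with the lowest p in this test did not pass the threshold and are given as values. Cspg4 averaged 212 CPM in isolated cells and 52.4 CPM in homogenate of ethanol mice, and 149 and 54.6 CPM in water mice, a difference of 0.57 ± 0.13 (FDR 0.271). Negr1, a neuronal adhesion gene (chromosome 3, 156561794 to 157316445), averaged 26.4 CPM in isolated cells and 275 CPM in homogenate of ethanol mice, and 38.3 and 257 CPM in water mice, a difference of -0.70 ± 0.15 (FDR 0.271). Car12, a carbonic anhydrase gene, averaged 2.31 and 16.7 CPM in the ethanol fractions and 0.328 and 24.3 CPM in the water fractions (4.06 ± 0.98, FDR 0.492). Its highest isolated ethanol library was 61 with 12.4 CPM, followed by 77 (3.74 CPM), 65 (2.87 CPM) and 60 (2.52 CPM). The rest had at most 0.932 CPM. Isolated libraries 60, 61 and 77, described above, are thus among its highest, and its value rests largely on library 61. Dact1, a regulator of Wnt signalling, averaged 27.4 and 13.5 CPM in ethanol mice and 14.7 and 14.0 CPM in water mice (0.96 ± 0.24, FDR 0.492). 

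The fraction effect itself was read in water mice as a separate comparison. There 4994 of 13434 genes were higher and 5418 lower in isolated cells. Of 13332 genes tested in both drinking groups, 9867 were called in both, and 1 of these, Fndc1, a fibronectin domain gene named after its values were seen, differed in sign (1.34 in ethanol mice and -1.35 in water mice). Several list medians differed little between the drinking groups. The cytokine and NF-kB median was 5.12 in ethanol mice and 5.12 in water mice, the immediate early median 3.76 and 3.73, the microglial median 3.52 and 3.68, and the astrocyte median 0.92 and 1.10. The oligodendrocyte median was 3.55 in ethanol mice and 3.16 in water mice, the mural median 2.95 and 2.64, the pan-neuronal median -4.25 and -3.82, and the excitatory neuron median -4.67 and -3.85. The ependymal and choroid plexus list stood furthest apart, with a median of 0.06 in ethanol mice and -4.20 in water mice over the 3 members tested in both, and its ethanol value is that of Ttr, which rests on isolated library 61. No member of these 9 lists passed the test of the difference, with a lowest FDR of 0.774 among them. The list of genes that handle ethanol and acetate had a median of 0.73 in ethanol mice and 0.78 in water mice.

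**Figure D5:**
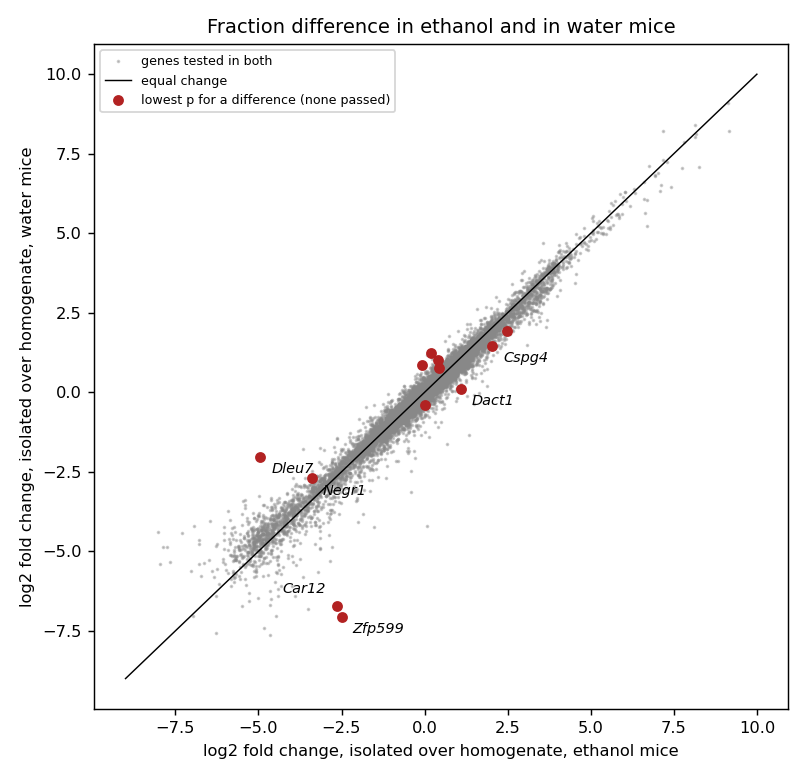
Log2 fold change of isolated cells over homogenate in ethanol mice (x axis) and in water mice (y axis) for 13332 genes tested in both; the line marks equal change and red points are the genes with the lowest p for a difference. Most points lie along the line, and Cspg4, Dact1, Negr1 and Car12 are labelled although none passed the threshold in edgeR.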

How the data were processed

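Poly(A) RNA of isolated cells and homogenate was sequenced from directional libraries. The authors deposited raw read counts for 24421 genes per library, whose 5 tally lines (reads not aligned, in no feature or ambiguous) were kept out of library sizes and tests. Reads in no feature were 7.76% to 20.0% in isolated libraries and 19.0% to 27.8% in homogenates, and the ribosomal gene Rn45s, which stayed in, took up to 3.99% and 1.99% of gene counts. The submitters' processing notes name Bowtie2 2.2.5, HTSeq 0.5.3p9, Picard 1.141, cutadapt 1.8, bcl2fastq 2.17 and DESeq2, with build mm10. Their order, and the strand setting used in counting, are not given there. Isolated water mouse 72 was not analysed here.

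Counts were fitted with edgeR 4.0.16 in R 4.3.3 (TMM, filterByExpr by group, robust quasi-likelihood test, Benjamini-Hochberg adjustment over all genes tested) on the 22 ethanol libraries, and on all 44 for the difference between drinking groups. The second rule also asked for a 2-fold change. Replicates were separate mice. The mouse number pairs the fractions, since 1 animal gave both; deviations of the same mouse correlated at a median of 0.0745 (-0.00201 to 0.150) against -0.00936 between mice, and 5 of 10 isolated libraries matched their own number best. The scripts were tested on simulated data. Floors (3 counts, 0.923 to 2.92 CPM per isolated library and 0.329 to 0.817 CPM per homogenate) and ratios with exact 95% intervals cover counting error only.

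The members and gene lists were chosen with earlier results of these data known. Genes named were, among those with a mean of at least 20 counts, the 8 largest changes and the 6 lowest p in each direction; the 3 members of each list with the lowest p, the 3 with the highest level and those called against the list median; Atp1b2 and Gfap; the 6 lowest p in each direction for the drinking groups; and the 6 most variable in isolated cells. Some are not reported here, and other list members named were chosen after their values were seen. Positions are from GENCODE M21. Alternatives were limma 3.58.1 voom, DESeq2 1.42.0, upper-quartile scaling, other count filters, thinning to 1028493 counts, Rn45s left out, mouse as a block, and libraries left out.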

Additional observations from a re-analysis of the deposited data

Results flagged for a closer look

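Single isolated libraries stood far from the other 9 for 12 of 229 genes named here and examined in the 10 isolated ethanol libraries, by the gap to the nearest other library over the whole range on the log2 scale. Chance flags about 1 in 20 groups of this size, and 12 of 229 is close to that share. The genes are therefore listed as values only. Isolated library 66 was the highest for the neuronal genes Ncs1 (57.6 CPM, next 43.2) and Negr1 (44.4 CPM, next 29.8) and for the endothelial gene Mfsd2a (100.1 CPM, next 70.5). Isolated library 59 was the highest for Slc1a1 (40.4 CPM, next 23.7). Isolated library 65 was the lowest for Cat (71.9 CPM, next 90.7), library 76 the lowest for Kcnk2 (17.5 CPM, next 29.8), library 77 the lowest for Col3a1 (2.37 CPM, next 4.78) and library 61 the lowest for Lpl (0.540 CPM, next 2.37). Adh7 (0.639 CPM in isolated library 62), Chrm2 (0.473 CPM in 77), Cntnap3 (0.540 CPM in 61) and Epha8 (0.727 CPM in 65) had counts in 1 isolated library each.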

How the results depend on the processing

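Of 140 recomputed counts of called genes, 138 stayed within 1.5 times the value reported, and the other 2 were the DESeq2 test of ethanol minus water, with 1 gene higher and 1 lower where edgeR called 0 (929 genes had an unadjusted p under 0.05 in DESeq2). Genes higher numbered 5245 to 5418, and genes lower 5505 to 5776, when 1 library was left out. Over the other settings the ranges were 4433 to 6047 and 4326 to 6885, the lowest after thinning all libraries to the lowest depth. Upper-quartile scaling gave 5828 higher and 5174 lower. With mouse as a replicate block over the 10 paired mice, 5211 genes were higher and 5510 lower, against 5280 and 5516 in the same mice without it, and at least 2-fold changes numbered 2700 and 3011. The pairing changed the calls of Matn4, Mybpc1, Pdgfra, S100b, Kl and Ttr as given in the report.

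Results that reversed were few, and the cause was not tested. Without isolated libraries 60, 61 and 77, a setting chosen after seeing the data, Frzb was at -3.71, Matn4 at -0.23, Mybpc1 at -3.60 and Ttr at -2.56. Mybpc1 was at -0.55 in limma voom. Ttr was at -2.57 in DESeq2, -1.50 with the replicate block and -3.00 without isolated library 61, and leaving out 1 library at a time gave -3.00 to 0.46. No list median reversed, and 148 of 159 recomputed medians stayed within the spread between libraries. Depth limits low genes: 3 counts stand for 0.923 to 2.92 CPM in isolated libraries, so decreases of genes near that level have no exact size.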
